A study of Mus musculus with 12 samples.

Results

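Homologous recombination and the Fanconi pathway were examined at the transcript level through 38 genes, chosen by symbol from the 55573 genes of the count table. They comprise BRCA1, BRCA2 and their partners, strand exchange factors, the Fanconi core and ID2 complexes, end resection factors, the enzymes that resolve joined DNA molecules, and the checkpoint kinases with their activators. All 38 passed the filter on low counts, among 13836 genes tested. RNA-Sequencing data came from tumourspheres of 3 mouse lines, A1005, A1129 and A1471. Every line was established by dissociating a spindloid tumour of genotype MMTV-Metmt;Trp53fl/+;Cre. By genotype, all groups carry an activated Met transgene under the MMTV promoter, which is active in mammary epithelium. They also carry a conditional Trp53 allele beside a wild-type one, and the labels do not give the promoter of Cre. The paper describes loss of Trp53 in this model and reports that its endogenous Met locus becomes amplified. Neither was examined here in the 3 lines. The treatments lasted 24 h and were DMSO as vehicle, Crizotinib, which inhibits the Met kinase, PD173074, which inhibits FGF receptor kinases, and both agents together (the combination), at 1 µM each. This gave 12 libraries, 1 from each of the 3 lines for each of the 4 treatments, so the lines are the replicates. Without the cell line as a term in the fit, p-values concern the spread between these 3 lines within a treatment. With it, they concern the spread that remains after the level of each line is taken out.

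Homologous recombination repairs a double-strand break by copying an intact sister chromatid, and so works mainly in S and G2 phase. The break ends are trimmed to single strands (resection), BRCA2 and its partners act on these strands, and a protein filament on them searches for the matching sequence. The Fanconi pathway unhooks crosslinks between the DNA strands at stalled replication forks. Its core complex attaches ubiquitin to the FANCD2-FANCI pair (the ID2 complex), after which nucleases and recombination factors complete the repair. ATR and CHK1 signal from single-stranded DNA and ATM and CHK2 from broken ends, and both routes can halt the cell cycle. In breast tissue, inherited mutations of BRCA1, BRCA2 and PALB2 are known for tumour predisposition.

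Total counts per library ranged from 13031492 to 17750476. All 66 pairs of libraries differed by more than sampling noise (chi-square over its degrees of freedom at least 4.72). Of the mesenchymal markers, Vim was at 1903 to 3204 CPM (TMM-normalised counts scaled to a common library size) in every library, whereas Cdh2 had at most 6 counts and Snai2 at most 32. Of the epithelial markers, Krt5 and Cldn7 were at 0 counts in all 12 libraries and Cdh1 had at most 9 counts, while Krt8, Krt18 and Krt19 reached 34, 49.4 and 44 CPM. Endothelial markers had at most 9 counts. Of the immune markers, Lyz2 was at 0 counts and Ptprc had up to 339, while Cd14 had 90 to 836 and Cd68 62 to 439.

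In DMSO, transcript levels of the 38 genes per exon length (RPKM) ranged from 1.05 ± 0.179 for Fancc to 23.6 ± 4.21 for Topbp1 (SD, n = 3 lines). Topbp1, which activates ATR, was followed by Rad50 at 15.2 ± 3.53 RPKM and Nbn at 12.7 ± 1.19 RPKM, members of the complex that holds broken ends. Brca1 stood at 10.4 ± 3.45 RPKM and Brca2 at 3.11 ± 1.64 RPKM. The lowest levels beside Fancc were those of Rad51b at 1.45 ± 0.246 RPKM and Palb2 at 1.73 ± 0.135 RPKM. Exon lengths join all annotated transcripts of a gene, so the level of a gene with long alternative exons, such as Atr with 23629 bases, is given low on this scale.

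Treatment with both inhibitors was compared with DMSO to ask which repair genes moved when both receptors were inhibited. In the unpaired fit, 16 of the 38 genes fell and 0 rose (edgeR quasi-likelihood test, adjusted p under 0.05), where 8.28% of all tested genes fell and 6.1% rose. When the line was added as a block, so that lines with high or low levels under every treatment no longer widened the spread, 29 of the 38 fell and 0 rose, where 26.2% of all tested genes fell and 28.6% rose. DESeq2 without the block called 21, all lower, against 10.5% of the genes it tested. The median log2 fold change of the 38 genes was -1.04, beside 0.02 over all tested genes, and 33 of the 38 had a value below 0. In bulk RNA, fewer cells that express a gene and less of its RNA per cell cannot be told apart.

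**Figure D1:**
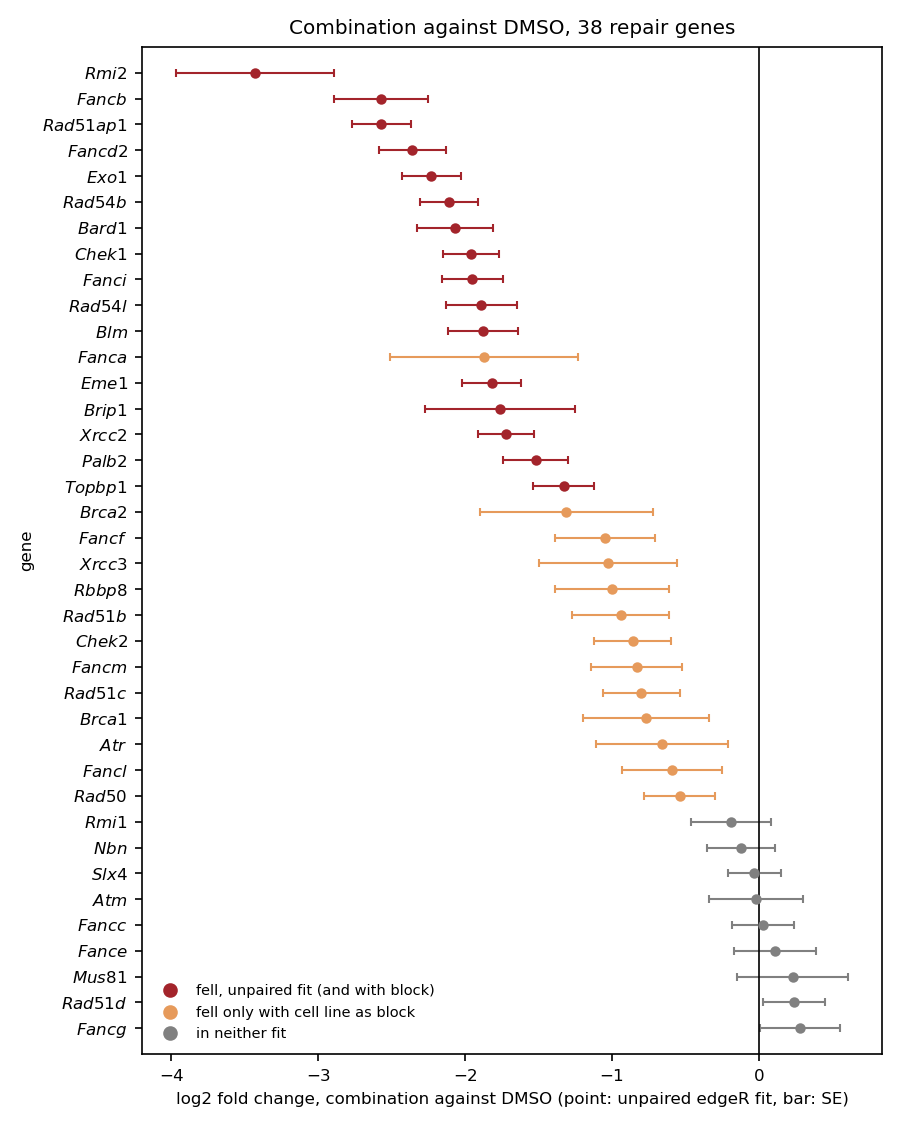
Log2 fold change of each of the 38 genes in the combination against DMSO (horizontal axis, points with SE bars from the unpaired edgeR fit), sorted by size. Dark red marks the 16 genes that fell in the unpaired fit, orange the 13 that fell only in the block fit, and grey the 9 called in neither, which lie between -0.19 and 0.28.

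Rad51ap1 encodes a protein that stimulates strand pairing (ENSMUSG00000030346, chromosome 6 of mm10 from 126923050 to 126939587). Its level was 25.3, 28 and 33.2 CPM in the DMSO libraries of A1005, A1129 and A1471, and 4.84, 5.33 and 4.38 CPM in the combination libraries of the same lines. The other treatments gave 26.4, 23.6 and 31.7 CPM with Crizotinib and 30.3, 23.3 and 28.3 CPM with PD173074. Only the 3 combination libraries were low, and they overlapped with none of the other 9. Of all tested genes, 16.1% had every combination library below every DMSO library, and this share stands beside each gene below. The share with every combination library below all 9 others was not computed. The log2 fold change against DMSO was -2.57 ± 0.20 (SE, n = 3 lines, edgeR adjusted p = 1.0e-04), a 5.94-fold fall.

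The exonuclease gene Exo1 (ENSMUSG00000039748, chromosome 1 from 175880581 to 175913489), which lengthens resected ends, was likewise low in the combination alone. Its DMSO levels of 43.6, 51.8 and 63.5 CPM stood against 11, 10.6 and 12.3 CPM in the combination, a log2 difference of -2.23 ± 0.20 (adjusted p = 1.8e-04, edgeR). Fancd2 and Fanci encode the ID2 complex, and both fell. Fancd2 (ENSMUSG00000034023, chromosome 6 from 113531682 to 113597017) was at 36.9, 41.3 and 50.3 CPM in DMSO and at 5.95, 9.9 and 9.2 CPM in the combination, a log2 difference of -2.36 ± 0.23 (adjusted p = 3.0e-04, edgeR). Fanci (chromosome 7 from 79391929 to 79450264) went from 23.7, 22.7 and 28.1 CPM to 5.28, 7.71 and 6.34 CPM, a log2 difference of -1.95 ± 0.21 (adjusted p = 4.6e-04, edgeR). Of the exon bases of Fanci, 16% lie on those of Polg on the opposite strand, and how the counting used strand is not given in the sources used here. For Fancd2, Fanci and Exo1, the 3 combination libraries lay below all 9 others, for which no share of all tested genes was computed.

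**Figure D2:**
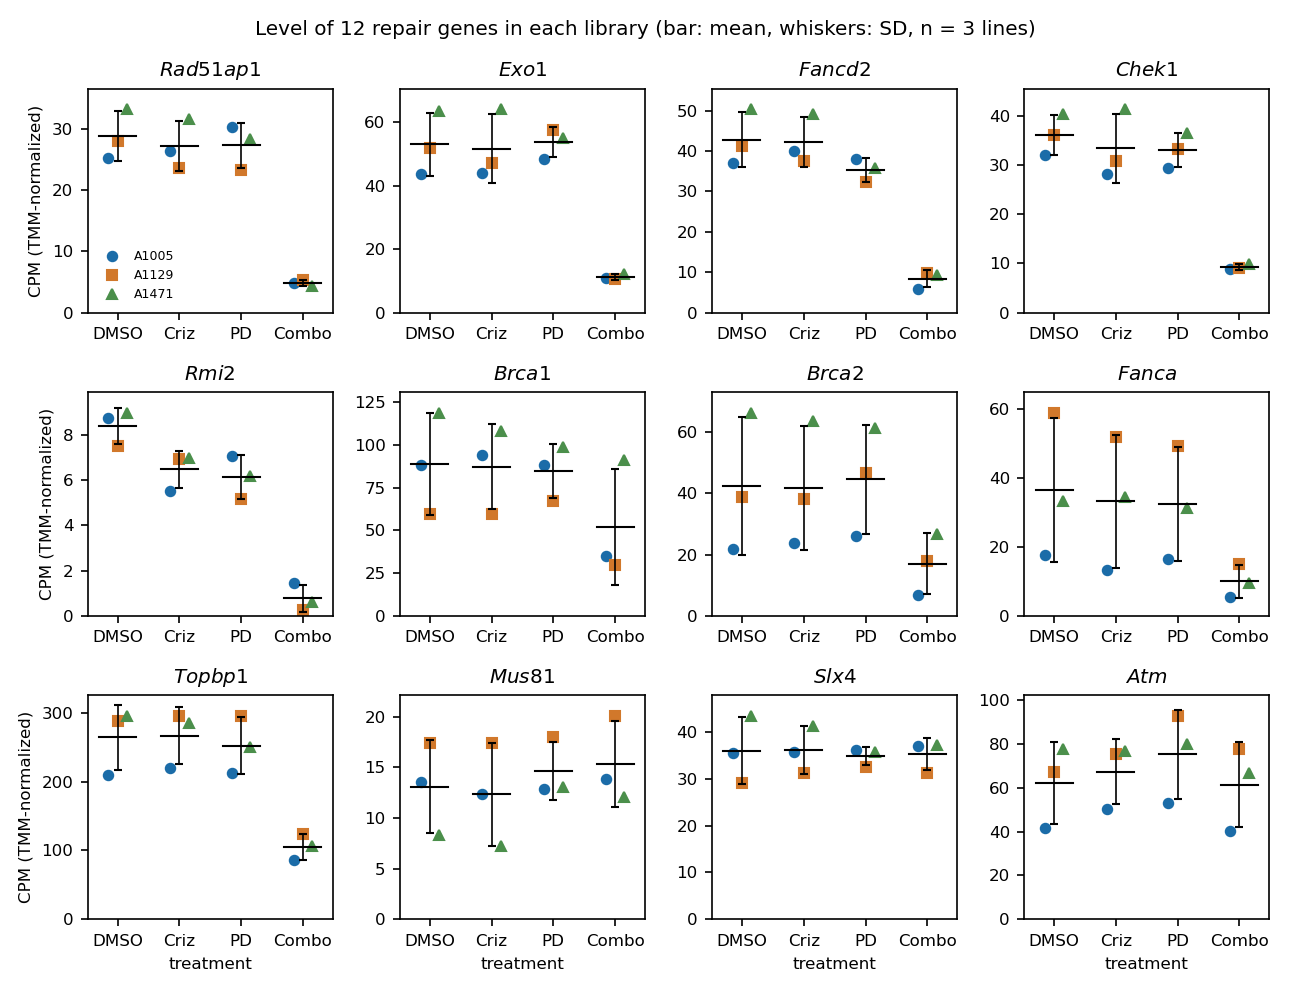
TMM-normalised CPM of 12 of the 38 genes in each library (vertical axis, from 0) by treatment (horizontal axis), with symbols for the 3 cell lines, the mean as a bar and the SD as whiskers (n = 3 lines). The 3 combination libraries of Rad51ap1 (4.38 to 5.33 CPM) sit below the other 9 (23.3 to 33.2 CPM), whereas those of Slx4 (31.3 to 37.3 CPM) lie within the range of its DMSO libraries (29.2 to 43.5 CPM).

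Among BRCA1, BRCA2 and their partners, Bard1, Palb2 and Brip1 fell in the unpaired fit and all 5 fell with the block. Over all tested genes the shares that fell were 8.28% and 26.2%. Bard1, the RING-domain partner of BRCA1, was at 20.1, 19.1 and 21.4 CPM in DMSO and at 4.61, 6.52 and 3.24 CPM in the combination (log2 fold change -2.07 ± 0.26, edgeR adjusted p = 0.00105). Palb2, whose protein joins BRCA1 to BRCA2, went from 12.2, 13.8 and 12 CPM to 4.11, 3.95 and 5.21 CPM (-1.52 ± 0.22, edgeR adjusted p = 0.00242). The helicase gene Brip1 went from 19.9, 29.2 and 52.4 CPM to 5.61, 11 and 13.4 CPM (-1.76 ± 0.51, edgeR adjusted p = 0.0443). That call was near the threshold and was lost with limma-voom (adjusted p = 0.0543), total counts (0.0502), no filter (0.0603), only the libraries compared (0.0925), and without A1129 (0.269) or A1471 (0.15). The call for Palb2 was also lost without A1129 (edgeR adjusted p = 0.0746) or A1471 (0.0635), and that for Bard1 without A1471 (0.0667). In none of the 3 genes did the DMSO and combination libraries overlap. Brca1, by contrast, was at 88.2, 59.6 and 119 CPM in DMSO and at 35.2, 29.6 and 91 CPM in the combination, so its A1471 combination library was above the DMSO libraries of the other lines. Its log2 fold change was -0.77 ± 0.43 without the block (edgeR adjusted p = 0.274) and -0.86 ± 0.21 with it (edgeR adjusted p = 0.00548), and the call with the block was lost without A1129. Brca2 was at 22, 38.9 and 66.4 CPM in DMSO and 6.78, 17.8 and 26.7 CPM in the combination. Each line was lower than its own DMSO library while the groups overlapped, and the log2 fold change was -1.31 ± 0.59 without the block (edgeR adjusted p = 0.17) and -1.36 ± 0.15 with it (edgeR adjusted p = 5.4e-05).

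Strand exchange, the pairing of a resected end with its intact template, is assisted by the products of Rad51b, Rad51c, Rad51d, Xrcc2 and Xrcc3, and by RAD54L and RAD54B, motor proteins that remodel DNA. Of the 8 genes listed under strand exchange, Xrcc2, Rad51ap1, Rad54l and Rad54b fell in the unpaired fit and 7 fell with the block. Beside these stand 8.28% and 26.2% of all tested genes. Xrcc2 was at 21.5, 20.7 and 20.5 CPM in DMSO and at 6.89, 5.51 and 6.56 CPM in the combination, which is -1.72 ± 0.19 on the log2 scale (edgeR adjusted p = 5.5e-04). Rad54l went from 31.1, 23.9 and 27.2 CPM to 6.67, 6.71 and 8.75 CPM (-1.89 ± 0.24). Rad54b went from 12.3, 12.5 and 10.6 CPM to 2.5, 2.88 and 2.79 CPM (-2.11 ± 0.20), and 35.9% of its exon bases are shared with Fsbp on the same strand or an antisense gene, so reads there cannot be assigned to 1 gene with certainty. Exon bases shared with other genes also make up 18.6% of Fancc, 15.4% of Rad54l, 15% of Fancf, 13.7% of Fancl, 10.7% of Eme1 and 10.5% of Fanca. Combination and DMSO libraries did not overlap for Xrcc2, Rad54l and Rad54b. With the block alone, Rad51b (-0.97 ± 0.20), Rad51c (-0.81 ± 0.21) and Xrcc3 (-1.04 ± 0.18) fell as well, the call for Rad51c being lost without A1471 (edgeR adjusted p = 0.0609). Rad51d passed neither fit, at 14.6, 21.8 and 20.5 CPM in DMSO and 18.9, 26.9 and 21.4 CPM in the combination (log2 fold change 0.24 ± 0.21, edgeR adjusted p = 0.505).

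Genes of the Fanconi core complex ranged from -2.57 to 0.28 in log2 fold change. Of its 8 genes, Fancb alone fell in the unpaired fit, where 8.28% of all tested genes fell. With the block, Fancb, Fanca, Fancf, Fancl and Fancm fell, where 26.2% of all tested genes did. Fancb, which helps to place the ligase subunit FANCL, is on the X chromosome (164980592 to 164997272) and went from 19, 30.3 and 32.5 CPM in DMSO to 3.89, 5.33 and 4.53 CPM in the combination (log2 fold change -2.57 ± 0.32, edgeR adjusted p = 0.00115). Fanca had a log2 fold change of -1.87 ± 0.64, and its DMSO libraries spread from 17.7 through 33.2 to 59 CPM, and the combination libraries were at 5.34, 15.1 and 9.58 CPM in A1005, A1129 and A1471. All 3 combination libraries were below the lowest DMSO library, and the adjusted p was 0.0805 without the block and 3.8e-06 with it (edgeR). Fancl, the ubiquitin ligase of the complex, was at 12.9, 11.8 and 10.4 CPM in DMSO and 12.2, 6.58 and 4.38 CPM in the combination, so A1005 was near its DMSO level. Fancl fell with the block (-0.65 ± 0.23, edgeR adjusted p = 0.0349), a call lost without A1129 and without A1471. The core subunit genes Fancc (0.03 ± 0.21), Fance (0.11 ± 0.28) and Fancg (0.28 ± 0.27) passed in neither fit. Fancg was at 11.9, 9.08 and 9.53 CPM in DMSO and 12.7, 13.5 and 10.9 CPM in the combination.

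Among the resection genes, Exo1 was the 1 of 4 that fell in the unpaired fit, and Rbbp8 (-0.99 ± 0.11) and Rad50 (-0.53 ± 0.09) fell with the block. For the counts in this paragraph, 8.28% of all tested genes fell in the unpaired fit and 26.2% with the block. Rbbp8 encodes CtIP, which starts resection together with the RAD50 and NBN complex. Nbn passed in neither fit, and its combination libraries at 40.2, 27.8 and 20.8 CPM lay on both sides of its DMSO libraries at 35.6, 29.9 and 31.1 CPM. Of the 6 genes for dissolution and junction cleavage, Blm, Rmi2 and Eme1 fell in both fits and Rmi1, Mus81 and Slx4 in neither. BLM, RMI1 and RMI2 act in one complex that separates joined molecules, and EME1 and MUS81 form one nuclease. Within the first complex, Blm went from 47.8, 60.2 and 54.4 CPM to 12.8, 19.8 and 11.5 CPM (-1.88 ± 0.24, edgeR adjusted p = 0.00129), while Rmi1 was at 12.4, 17.1 and 18 CPM in DMSO and 13.4, 15.9 and 12.4 CPM in the combination (-0.19 ± 0.27, edgeR adjusted p = 0.714). Rmi2 had 112, 114 and 130 counts in DMSO and 26, 4 and 8 counts in the combination, the lowest fold change of the 38 genes (-3.43 ± 0.54, edgeR adjusted p = 0.0033), resting on few counts. Of the MUS81 and EME1 pair, Eme1 went from 20.2, 19.9 and 17.2 CPM to 5.11, 5.14 and 5.96 CPM (-1.82 ± 0.20, edgeR adjusted p = 6.5e-04). Mus81 was at 13.6, 17.4 and 8.29 CPM in DMSO and 13.8, 20.1 and 12.1 CPM in the combination (0.23 ± 0.38, edgeR adjusted p = 0.756).

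The checkpoint genes belong to the ATR and ATM branches. On the ATR side, Chek1 encodes the effector kinase CHK1 and Topbp1 the activator of ATR, and both fell. Chek1 (ENSMUSG00000032113, chromosome 9 from 36708482 to 36727065) went from 32.1, 36 and 40.3 CPM to 8.89, 9.02 and 9.96 CPM (-1.96 ± 0.19, edgeR adjusted p = 3.0e-04). Topbp1 went from 210, 289 and 295 CPM to 85.7, 124 and 106 CPM (-1.33 ± 0.21, edgeR adjusted p = 0.00343). For both genes all combination libraries were below all others. Atr itself was at 26.1, 51.8 and 65.5 CPM in DMSO and 23, 28.6 and 39 CPM in the combination and fell with the block only (-0.59 ± 0.14, edgeR adjusted p = 0.00424), a call lost without A1129 and without A1471. On the ATM side, Atm was at 41.5, 67.2 and 77.8 CPM in DMSO and 40.1, 77.6 and 66.8 CPM in the combination (-0.02 ± 0.32, edgeR adjusted p = 0.984). Chek2 fell with the block (-0.87 ± 0.14, edgeR adjusted p = 6.2e-04) and missed the threshold without it (edgeR adjusted p = 0.0552). The difference between the branches was not tested.

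Agreement between the lines was examined from the difference of each combination library to the DMSO library of its own line. Of the 38 genes, 29 were lower in all 3 lines, as were 31.9% of all tested genes. Higher in all 3 lines were 3 of the 38, as were 34% of all tested genes. The 3 were Rad51d, Fancg and Mus81, named after their values were seen, and none of them passed a test. Over the 38 genes, the median log2 difference came to -1.30, -1.06 and -1.20 in A1005, A1129 and A1471, against 0.02, 0.00 and 0.00 over all tested genes. For 25 of the 38, every combination library was below every DMSO library, which held for 16.1% of all tested genes, and for 0 of the 38 every combination library was above, which held for 13.8%. Without A1005 the unpaired fit called 19 of the 38, without A1129 it called 11 and without A1471 it called 6. Rad51ap1, Rad54b, Fancd2, Exo1 and Chek1 passed in all 3 of these fits. The unpaired calls for Bard1, Xrcc2, Rad54l, Fanci, Blm and Rmi2 were lost without A1471, and that for Eme1 without A1129. Those for Palb2, Brip1, Fancb and Topbp1 were lost without A1129 and without A1471. With the block, 29, 26 and 26 genes fell when A1005, A1129 or A1471 was left out, and 25 fell in all 3 fits. The share of all tested genes called was not computed for any fit with a line left out.

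**Figure D3:**
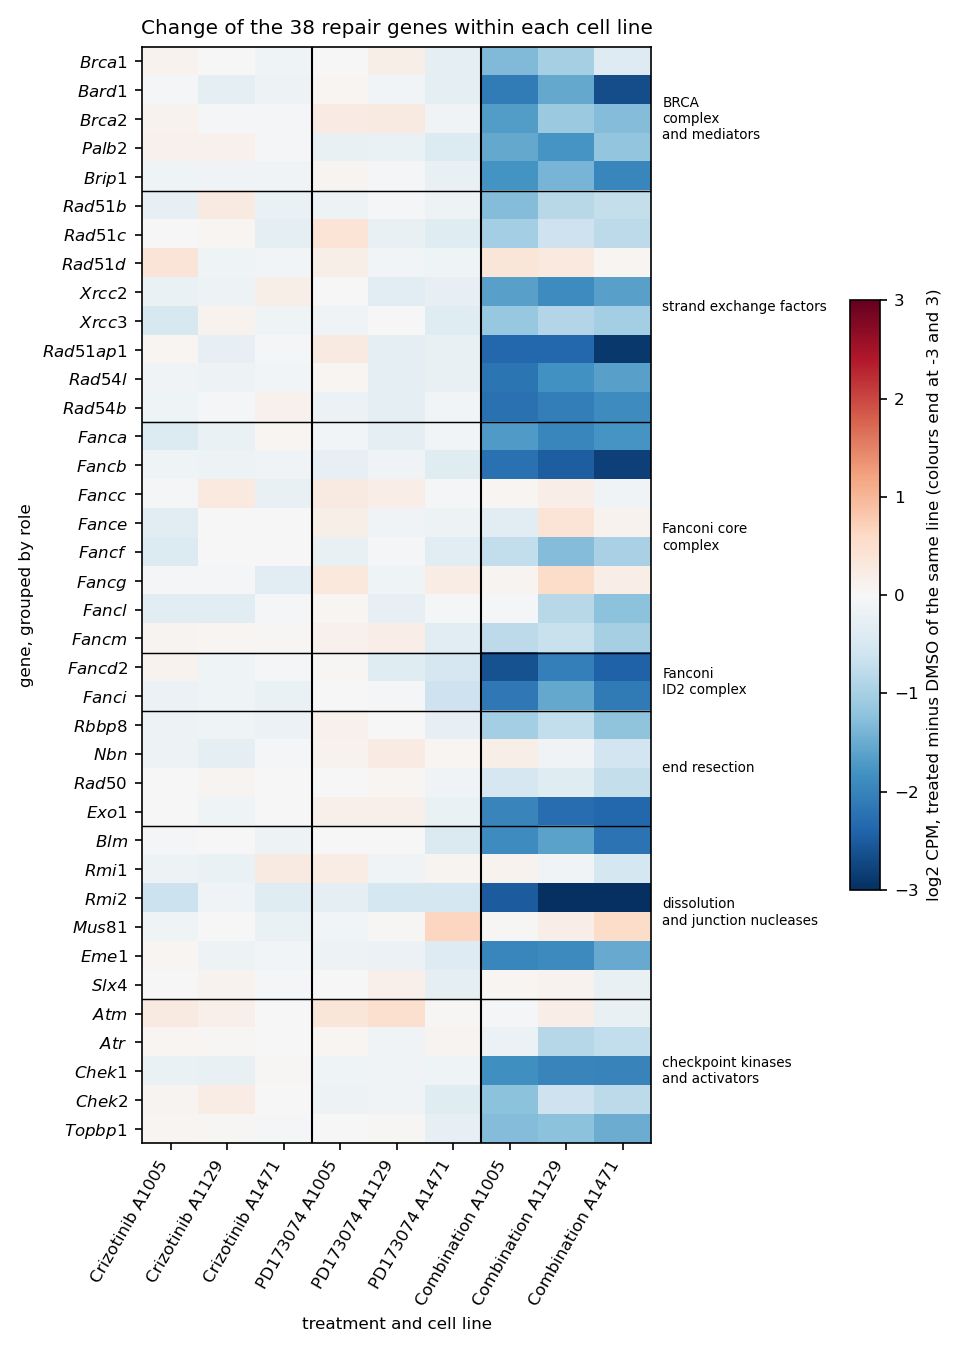
Difference in log2 CPM between each treated library and the DMSO library of the same cell line (colour, blue lower and red higher) for the 38 genes (rows, grouped by role) and the 9 treated libraries (columns). The colour scale ends at -3 and 3. The combination columns are blue for the 29 genes lower in all 3 lines, while the columns of either single inhibitor are paler.

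Each inhibitor alone was compared with DMSO to ask whether a single agent would give the same picture. With Crizotinib, 0 of the 38 genes passed, without or with the block, where 0% of all tested genes fell in either edgeR fit. The count at an unadjusted p under 0.05 was 0 in both edgeR fits, and DESeq2 also called 0 of the 38 (0.00356% of its tested genes fell). With PD173074, 0 of the 38 passed in the unpaired edgeR fit, where 0% of tested genes fell, and 0 passed with the block, where 0.52% fell. The count at an unadjusted p under 0.05 was 0 without and 1 with the block, and DESeq2 called 0 (0.0358% of its tested genes fell). The median log2 fold change of the 38 genes was -0.07 with Crizotinib and -0.08 with PD173074. Single values ranged from -0.37 to 0.12 with Crizotinib and from -0.45 to 0.28 with PD173074, with Rmi2 at the low end of both. All Crizotinib libraries were below all DMSO libraries for 2 of the 38 genes (0.853% of all tested genes) and all PD173074 libraries for 1 (3.07%). Both comparisons and that of the combination share the same 3 DMSO libraries. By line, PD173074 values were lower than DMSO for 15, 25 and 32 of the 38 genes (A1005, A1129, A1471), at medians of 0.03, -0.09 and -0.23. The medians over all tested genes were 0.01, 0.00 and 0.00, and the share of these genes that was lower in each line was not computed. With 1 library for each line and treatment, a difference between lines was not tested.

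The combination was next compared with each inhibitor, which asks what the added agent changed. Against Crizotinib, 16 of the 38 genes were called, all lower, where 7.78% of all tested genes were lower, and with the block 28 were called, where 26% were lower. Against PD173074, 15 were called without the block, all lower (3.93% of all tested genes), and 29 with it (20.2%). The medians of the 38 genes were -0.93 and -0.90. Brip1 passed against DMSO but not against Crizotinib (-1.65 ± 0.51, edgeR adjusted p = 0.0586), and Chek2 passed against Crizotinib (-0.95 ± 0.26, edgeR adjusted p = 0.0411). Fancd2 illustrates the sizes: its log2 fold change was -2.34 ± 0.23 against Crizotinib (edgeR adjusted p = 3.4e-04) and -2.08 ± 0.23 against PD173074 (edgeR adjusted p = 7.6e-04). All combination libraries lay below all Crizotinib libraries for 22 of the 38 genes (16.1% of all tested genes) and below all PD173074 libraries for 24 (12.7%). The count against PD173074 depended on the libraries fitted and was 5 when only the 6 libraries compared entered the fit, 3 without A1129 and 3 without A1471. For these smaller fits the share of all tested genes was not computed.

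Departure from additivity compares the change in the combination with the sum of the changes under each inhibitor on the log2 scale, and a negative value means a level below that sum. In the unpaired fit 9 of the 38 genes departed, all below the sum, where 0.911% of all tested genes did, and with the block 23 departed, where 10.7% did. DESeq2 called 15 (2.95% of its tested genes). The 9 were Rad51ap1 (-2.41 ± 0.27, edgeR adjusted p = 0.00393), Exo1 (-2.21 ± 0.27, edgeR adjusted p = 0.00611), Rad54b, Fancd2, Chek1, Xrcc2, Fanci, Eme1 and Bard1, the last at -1.82 ± 0.35 (edgeR adjusted p = 0.046). By role, both genes of the ID2 complex departed, 3 of the 8 strand exchange factors, and 0 of the 8 core complex genes, where Fancb narrowly missed (-2.21 ± 0.44, edgeR adjusted p = 0.0521). With the block the counts were 2, 4 and 3, the last being Fanca, Fancb and Fancm. Rmi2, which had the lowest value at -2.61 ± 0.70, did not pass without the block (edgeR adjusted p = 0.176). With any 1 line left out the unpaired fit called 0 of the 38, and with the block it called 16 to 18.

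The other genes of the same pathway, a list of 37, moved in part with the 38. Counts here stand beside 8.28% of all tested genes that fell and 6.1% that rose in the unpaired fit (26.2% and 28.6% with the block). In the combination 13 of the 37 fell and 1 rose against DMSO (25 and 3 with the block), and the median change was -0.69 on the log2 scale. Parpbp, which restrains recombination, was at 27.6 ± 4.08 CPM in DMSO and 5.18 ± 0.113 CPM in the combination (-2.41 ± 0.22 on the log2 scale, edgeR adjusted p = 2.2e-04). The resection nuclease gene Dna2 (-2.25 ± 0.42) and the recombination regulator gene Fignl1 (-2.19 ± 0.30) fell as well. The 1 that rose was Ercc4, the XPF nuclease gene, at 1.08 (edgeR adjusted p = 0.0362), named after its value was seen. In a list of 19 further checkpoint and break signalling genes, 8 fell and 0 rose (16 and 0 with the block; median -0.79). Clspn, which presents CHK1 to ATR, fell from 60.4 ± 5.22 to 11.8 ± 1.07 CPM (-2.35 ± 0.15, edgeR adjusted p = 4.3e-05). Cdc25c (-2.04 ± 0.40), the phosphatase that CHK1 restrains, and the fork protein gene Tipin (-1.96 ± 0.17) fell too, as did the ATR activator Etaa1 (-1.34 ± 0.22).

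Other repair pathways were given by shorter lists, to be read against the 8.28% of all tested genes that fell and 6.1% that rose in the unpaired fit, and 26.2% and 28.6% with the block. In end joining, which religates breaks without a template, 0 of 9 genes passed in either direction in the unpaired fit, with a median of 0.16, and 2 fell and 3 rose with the block. Of 7 mismatch repair genes, 2 fell (6 with the block, median -0.60), namely Pms2 (-1.02 ± 0.29) and Msh6 (-0.96 ± 0.26). Of 16 base excision genes tested, 3 fell (8 with the block, median -0.35). They were the glycosylase genes Neil3 (-2.62 ± 0.33), Ung (-1.97 ± 0.55) and Mutyh (-1.41 ± 0.33). Of 14 nucleotide excision genes, Rad23b fell (-0.62 ± 0.17) and Xpc rose (0.82 ± 0.19), both recognising damage, and 4 fell and 4 rose with the block (median -0.19). Differences between these lists were not tested.

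Genes of DNA replication and mitosis moved with the repair genes. The same shares of all tested genes apply, 8.28% lower and 6.1% higher in the unpaired fit, and 26.2% and 28.6% with the block. Of 15 S-phase genes, 14 fell in the combination against DMSO, 15 with the block, at a median of -1.87. Rrm2, which makes deoxynucleotides, went from 243 ± 38.6 to 27.9 ± 11.1 CPM (-3.12 ± 0.31), and the origin-licensing gene Cdc6 from 63.9 ± 9.18 to 10.7 ± 2.01 CPM (-2.58 ± 0.19). The summed level of the 15 genes was 2241 to 2865 CPM in DMSO, 2045 to 2672 with Crizotinib, 2257 to 2489 with PD173074 and 685 to 749 in the combination. All 15 G2 and M genes fell (median -2.23), among them Birc5 (-2.74 ± 0.12) and Top2a (-2.55 ± 0.20). Their sum was 3408 to 4281 CPM in DMSO, 3448 to 3862 with Crizotinib, 2886 to 3517 with PD173074 and 562 to 1041 in the combination. With PD173074 their median change was -0.27 (-0.45 to -0.08) and with Crizotinib -0.08 (-0.17 to 0.05), and 0 passed with either. The part of this change in cycle genes in the result for the repair genes was not tested. Of 10 p53 target genes, Trp53inp1 rose (2.98 ± 0.63) and Aen fell (-0.98 ± 0.24), with a median of 0.27. Of the cell type markers, Twist1 (-1.09 ± 0.15) and Twist2 (-0.82 ± 0.24) fell among 7 mesenchymal genes tested, and 0 of 4 epithelial and 0 of 3 immune genes passed (edgeR, unpaired), with calls in both directions under the block. There Krt18 and Krt19 fell, Cd14 (-1.09) and Snai1 (-0.74) fell, and Cd68 (0.82) and Zeb2 (0.51) rose. The summed epithelial level was 16.2 to 74.5 CPM in DMSO and 7.39 to 52.3 CPM in the combination, the immune level 24.8 to 86 and 15.1 to 61.3 CPM, and the mesenchymal level 3236 to 4733 and 2487 to 8518 CPM, so the groups overlapped in each.

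**Figure D4:**
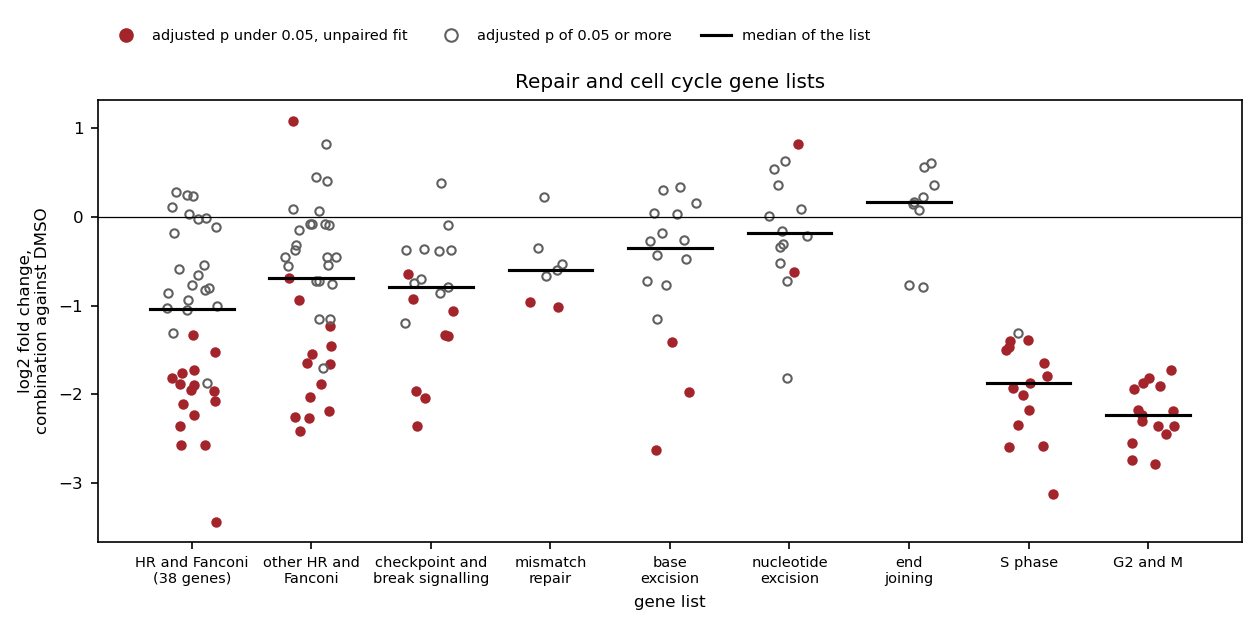
Log2 fold change in the combination against DMSO (vertical axis, unpaired edgeR fit) for every tested gene of 9 lists, with filled points for an adjusted p under 0.05 and a bar at the median. The 38 repair genes reach from -3.43 to 0.28 with a median of -1.04, the end joining genes have a median of 0.16 and the S-phase genes one of -1.87.

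Levels also differed between the cell lines. In a fit with the treatment as a term, 23 of the 38 genes differed between lines (edgeR, adjusted p under 0.05), where 73.9% of all tested genes did. The 4 libraries of a line are not separate cultures of separate tumours, so these p-values concern these 3 lines. Of the 23, A1005 was the lowest line for 17 and the highest for 1. The shares of all tested genes that were lowest or highest in A1005 were not computed. Fanca was at a median of 15 CPM over the 4 libraries of A1005, 50.6 in A1129 and 32.3 in A1471, and A1129 exceeded A1005 by 1.69 on the log2 scale (edgeR adjusted p = 5.9e-07). Brca2 had medians of 22.9, 38.6 and 62.6 CPM in the same order, Brip1 of 19, 27.6 and 46.6 CPM, and Atr of 26.7, 50 and 65.7 CPM. Brca1 was ordered otherwise, lowest in A1129 with a median of 59.7 CPM, beside 88.3 in A1005 and 104 in A1471. Of the 13 genes that fell only with the block, 11 differed between lines, against 7 of the 16 that fell in both fits. Such a split is built into the fits and is no separate result. A difference between lines widens the spread in the unpaired fit, and all fits use the same libraries.

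**Figure D5:**
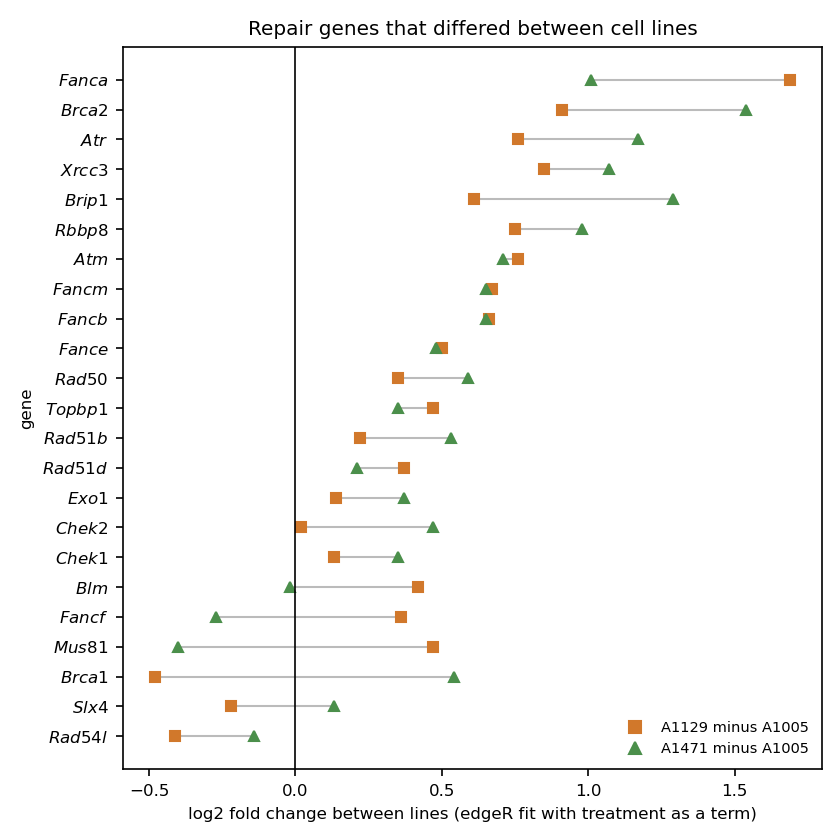
Difference in expression between cell lines (horizontal axis, log2 fold change from an edgeR fit with the treatment as a term) for the 23 of 38 genes that differed, with A1129 minus A1005 as squares and A1471 minus A1005 as triangles. Both symbols lie to the right of 0 for the 17 genes lowest in A1005, with Fanca at 1.69 (A1129) and Brca2 at 1.54 (A1471) the farthest. The share of all tested genes lowest in A1005 was not computed.

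Since many of the 38 genes moved together, their promoters were searched for letters bound by cell cycle regulators, as a description. Promoter sequences of RefSeq on GRCm38.p6, from 250 bases before to 50 after the start, were given for 29 of the 38 genes. E2F factors, which govern S-phase genes, were represented by TTTGGCGC, TTTCCCGC, TTTGCCGC and TTTCGCGC on both strands. At least 1 of these was found for 7 of 29 genes (24.1%), against 2.6% of 27025 genes with a promoter and 4.76% of those tested. The 7 were Bard1, Brca2, Chek2, Fancg, Rad51c, Rmi1 and Topbp1. Split by the result in the combination, they were 2 of 11 genes that fell in the unpaired fit, 3 of 11 that fell only with the block and 2 of 7 that fell in neither. CCAAT, the letters bound by NF-Y, was found on either strand for 18 of 29 (62.1%), against 41.1% of all and 43.6% of tested genes. The cell cycle homology letters TTTGAA, found in promoters of G2 and M genes, were present for 3 of 29 (10.3%), against 20.2% and 14.1%.

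A few contrasting promoters are printed to show these letters, 5′ to 3′ on the strand of the gene, chosen after the values were seen. Capitals mark the matches, and positions give the first base of a match with the start as 0. Bard1 (chr1:71102923-71103222, minus strand), which fell, holds TTTGAA at -242 and TTTCCCGC at -209. Topbp1 (chr9:103305077-103305376, plus strand), which also fell, holds TTTCGCGC on the opposite strand at -129, printed as its reverse complement. Fancg (chr4:43010252-43010551, minus strand), which passed in neither fit, holds TTTCCCGC at -52. Rad51ap1 (chr6:126939538-126939837, minus strand), which had the lowest adjusted p of the 38 in the unpaired fit, holds none of the E2F letters but 2 CCAAT matches on the opposite strand at -230 and -36.
Bard1: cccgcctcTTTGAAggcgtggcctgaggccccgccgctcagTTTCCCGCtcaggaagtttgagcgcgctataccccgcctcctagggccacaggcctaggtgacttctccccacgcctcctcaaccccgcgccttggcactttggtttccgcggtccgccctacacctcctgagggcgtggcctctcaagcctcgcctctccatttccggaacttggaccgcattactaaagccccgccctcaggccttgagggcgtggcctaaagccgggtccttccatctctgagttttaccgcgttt
Topbp1: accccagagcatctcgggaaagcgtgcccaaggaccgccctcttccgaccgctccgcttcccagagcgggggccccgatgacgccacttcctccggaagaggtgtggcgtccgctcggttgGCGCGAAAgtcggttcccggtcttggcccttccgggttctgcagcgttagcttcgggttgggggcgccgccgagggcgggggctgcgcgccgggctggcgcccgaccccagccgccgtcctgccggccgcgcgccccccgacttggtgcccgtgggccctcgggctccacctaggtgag
Fancg: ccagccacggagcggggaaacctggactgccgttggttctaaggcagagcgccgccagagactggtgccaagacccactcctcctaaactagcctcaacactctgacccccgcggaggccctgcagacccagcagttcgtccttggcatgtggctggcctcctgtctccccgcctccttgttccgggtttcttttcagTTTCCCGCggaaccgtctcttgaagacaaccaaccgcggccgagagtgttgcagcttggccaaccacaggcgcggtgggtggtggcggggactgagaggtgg
Rad51ap1: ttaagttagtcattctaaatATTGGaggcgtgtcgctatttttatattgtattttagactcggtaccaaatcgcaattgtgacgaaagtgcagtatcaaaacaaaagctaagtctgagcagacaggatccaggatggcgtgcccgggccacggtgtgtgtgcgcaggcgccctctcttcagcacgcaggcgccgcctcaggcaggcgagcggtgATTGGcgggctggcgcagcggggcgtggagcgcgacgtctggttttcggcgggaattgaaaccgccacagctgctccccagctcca
Only exact letters within these windows were searched, so sites with other letters or beyond the window are not counted. Whether E2F factors act on these genes was not tested.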

How the data were processed

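The authors extracted total RNA from tumourspheres, sequenced it on a NextSeq500 instrument and deposited unnormalised counts of reads on each Ensembl gene. The submitters' processing notes name bcl2fastq, STAR and HTSeq and the build mm10, and the use of strand and the annotation release are not given in the sources used here. Coordinates and exon lengths came from GENCODE M21 (mm10), which matched 55394 of 55573 genes and all 38 described.

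Low counts were removed by filterByExpr (at least 10 counts, 15 in total), TMM factors were applied, and edgeR 4.0.16 (R 4.3.3) gave quasi-likelihood tests from a single fit of the treatment over 12 libraries, unpaired as in the study's methods (which name DESeq2 and limma), with Benjamini-Hochberg adjustment over all tested genes and a threshold of 0.05. Totals of 13031492 to 17750476 counts set the precision, and the prior count for log2 CPM was 2. Libraries of the same line are paired by the labels. Their deviations from the treatment means correlated at 0.871 on average (lowest 0.766, over 18 pairs), against -0.422 over 36 pairs of different lines, and a fit with the line as a block was run throughout.

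Every one of the 38 genes could be named in every comparison, and of each other list the up to 4 genes past the threshold with the largest absolute log2 fold change in the combination (1 of these and 1 marker are not reported here). The genes and lists were chosen with earlier results of these data known. The alternatives were the block, DESeq2 1.42.0, voom of limma 3.58.1, other scalings and filters, a minimum log2 fold change of 1.5 in size, only the libraries compared, and leaving out each line. The block without each line and DESeq2 with the block were chosen after seeing the data. Scripts were tested on simulated data. Tables and plots used Python 3.11.15, pandas 2.3.3, numpy 2.4.6 and matplotlib 3.10.9.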

Additional observations from a re-analysis of the deposited data

Results flagged for a closer look

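Effects that differed between inhibitor contexts were flagged where the change brought by the combination departed from the sum of both single-inhibitor changes in the unpaired edgeR fit, a test of the difference itself. This marked 9 of the 38 genes, all below the sum on the log2 scale, where 0.911% of all tested genes were called below it. The departures were -2.41 for Rad51ap1, -2.21 for Exo1, -2.06 for Fancd2, -1.88 for Rad54b, -1.82 for Bard1, -1.72 for Chek1, -1.55 for Fanci, -1.54 for Eme1 and -1.48 for Xrcc2. All 9 also departed with the cell line as a block, where the adjusted p (edgeR) ran from 5.7e-05 for Exo1 to 0.00342 for Bard1. With the block, 10.7% of all tested genes were called below the sum. The unpaired calls were not stable: with any 1 line left out 0 of the 38 passed, and with no filter on low counts 3 did. Differences between cell lines in the response were not tested, since each line had 1 library for each treatment, and groups of 3 libraries are too small for a check of single libraries.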

How the results depend on the processing

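The median log2 fold change of the 38 genes in the combination against DMSO stayed between -1.13 and -0.99 under every alternative run, and 0 of the 38 passed with either single inhibitor in any. With at least 10 counts required in every library, 37 of the 38 were tested, Rmi2 being left out. Counts depended on the fit. Shares of all tested genes were computed only for the main edgeR fits, without and with the block, and in part for unpaired DESeq2. The replicate block on cell line raised them from 16 to 29 against DMSO, from 16 to 28 against Crizotinib, from 15 to 29 against PD173074 and from 9 to 23 for the departure from additivity, and DESeq2 with the block gave 29, 28, 28 and 23. Leaving out 1 line gave 6 to 19, 6 to 17, 3 to 14 and 0 in each case without the block, and 26 to 29, 23 to 28 (25 without A1471), 22 to 26 (25 without A1471) and 16 to 18 with it. Against PD173074, using only the libraries compared gave 5. For additivity, DESeq2 gave 15 and no filter on low counts gave 3. Among genes with a log2 fold change of 1.5 or more in size, the 4 counts were 15, 14, 13 and 8. The count of genes differing between lines was 22 to 26. Only the libraries compared could not be run for additivity, which needs all groups. The log2 fold change in the combination changed sign only in genes called in no fit. With 1 line left out, Fancc ranged from -0.03 to 0.13, Fance from -0.06 (-0.10 with the block) to 0.27, Nbn from -0.32 to 0.07 (0.06), Rmi1 from -0.30 to 0.01 (0.02), Slx4 from -0.08 to 0.09 (0.10) and Atm from -0.15 through 0.00 to 0.14 (0.10). Atm was also at 0.01 with DESeq2 and with its size factors, and Atm and Slx4 were at 0.03 and 0.02 with total counts, 0.03 and 0.01 with at least 10 counts in every library and 0.00 with DESeq2 and the block. The causes were not tested. The median of all tested genes was 0.00 to 0.07 (highest with total counts). Depth limits chiefly Rmi2, at 4 to 26 counts in the combination, and intervals from counts cover counting error only.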
